A study of Mus musculus with 4 samples.

Results

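The cells sorted from P97 mice for both GFP and tdTomato are compared here with the cells sorted from the same mice for tdTomato alone. A cell entered the comparison if its barcode had 2000 or more UMIs (unique molecular identifiers, each counting 1 captured transcript), if genes starting with mt- took under 25% of them, and if it had 3 or more UMIs of Sst. By this rule 186 of 232 barcodes of the GFP+/tdTomato+ library were kept, against 553 of 741 in the P97 tdTomato+ library, and 667 of 866 and 645 of 772 in P45 tdTomato+ replicates 1 and 2. The 4 libraries together gave 2051 cells of 2611 barcodes.

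The study sequenced single somatostatin (SST) interneurons of mouse somatosensory cortex with a droplet method that counts the 3′ ends of transcripts. All mice carried Cre recombinase under the Sst gene, a Cre-dependent tdTomato reporter that labels cells with a history of Sst expression, and the X94 transgene, in which GFP is driven from Gad1 regulatory sequence in a subset of SST cells. At P97 (postnatal day 97) cells of 6 mice were pooled, and both GFP+/tdTomato+ cells and tdTomato+ cells were sorted from that pool; the second sort ignored GFP and so can itself hold X94 cells. At P45 the tdTomato+ sort alone was made, from 2 further batches of mice of a number that the sources do not state. Each P97 sort is 1 library, so no test of the difference between the sorts was possible, and the 3 tdTomato+ libraries show how far libraries of one sort lay apart. Age and batch differ together between the P97 and P45 libraries and cannot be told apart.

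SST interneurons release GABA onto the dendrites of their targets and include Martinotti cells, whose axons climb to layer 1, and non-Martinotti cells, whose axons fill layer 4. The X94 line is known for labelling non-Martinotti cells. Ion channels set how such a cell fires, receptors set which transmitters and modulators reach it, neuropeptides add slow signals to its GABA release, and adhesion and guidance molecules take part in which partners its axon and dendrites join.

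The GFP+ cells were the most deeply sampled, with a median of 16474 UMIs and 5047 genes per cell, against 7701 UMIs and 3421 genes in the P97 tdTomato+ cells and medians of 5162 and 6163 UMIs in P45 replicates 1 and 2. The kept cells of each library were therefore summed gene by gene, and each sum was thinned at random to the total of the smallest, 3189412 UMIs. All values called UMIs below are on this equal-depth scale unless stated. Genes with 60 or more UMIs over the 4 sums were compared, which left 10611 genes. A ratio is GFP+/tdTomato+ over P97 tdTomato+ UMIs, with an exact 95% interval that covers counting error only and neither the choice of cells nor the spread between libraries. In such sums, fewer cells of a type and less RNA per cell cannot be told apart. Barcode sequences were almost unshared, with 0 to 2 in common for each pair of libraries.

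The sorts were first checked against their markers. SST interneuron markers were at like levels in both sorts: Sst had 18764 UMIs in GFP+ cells against 15224 in P97 tdTomato+ cells, Gad1, a GABA-synthesising enzyme gene, 3846 against 3269, and the transporter gene Slc32a1 1714 against 1407. All 10 SST markers passed the floor and 0 lay 2-fold apart. Sst is no independent check among them, since cells were kept for 3 or more Sst UMIs. GFP itself had 1683 UMIs in the GFP+ sort against 1098 in P97 tdTomato+ and 1076 and 1060 in P45 replicates 1 and 2 (ratio 1.53, interval 1.42 to 1.66). With every cell thinned to 3000 UMIs, a GFP UMI was found in 70.1% of GFP+ cells against 56.9% of P97 tdTomato+ cells, and in 18.4% of 103 left-out barcodes with 3 or more UMIs of Slc17a7, a marker of excitatory neurons. Without thinning these shares were 90.9%, 77.0% and 22.4%. That background differed between libraries: unthinned, a GFP UMI was found in 1 of 3 such barcodes of the GFP+ sort, 10 of 15 of P97 tdTomato+, and 6 of 66 and 7 of 23 of P45 replicates 1 and 2. The share of P97 tdTomato+ cells that express GFP therefore cannot be read from these transcripts. tdTomato had 2791 UMIs in GFP+ cells, 2963 in P97 tdTomato+ cells, and 4644 and 4800 in P45 replicates 1 and 2.

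Across all genes the GFP+ sort lay further from the tdTomato+ sort of the same mice than the tdTomato+ libraries lay from each other, and mostly on the lower side. Of 10611 genes, 154 were at least 2-fold higher in GFP+ cells (1.45%) and 460 at least 2-fold lower (4.34%). The SD of the log2 ratio over genes was 0.59 between the P97 sorts. Between P97 tdTomato+ and P45 replicate 1 it was 0.47, with 284 genes 2-fold higher (2.68%) and 148 lower (1.39%). Between P97 tdTomato+ and P45 replicate 2 it was 0.42, with 233 higher (2.2%) and 80 lower (0.754%). Between the P45 replicates it was 0.36, with 113 higher in replicate 1 (1.06%) and 96 lower (0.905%). More genes thus lay 2-fold lower in the GFP+ sort than on either side of any pair of tdTomato+ libraries, whereas the number 2-fold higher was within the range those pairs gave. To set aside genes that vary among tdTomato+ libraries, a stricter rule asked for a 2-fold difference of the GFP+ sort from each of the 3 tdTomato+ libraries. It was met by 81 genes on the higher side (0.763%) and 313 on the lower side (2.95%).

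**Figure D1:**
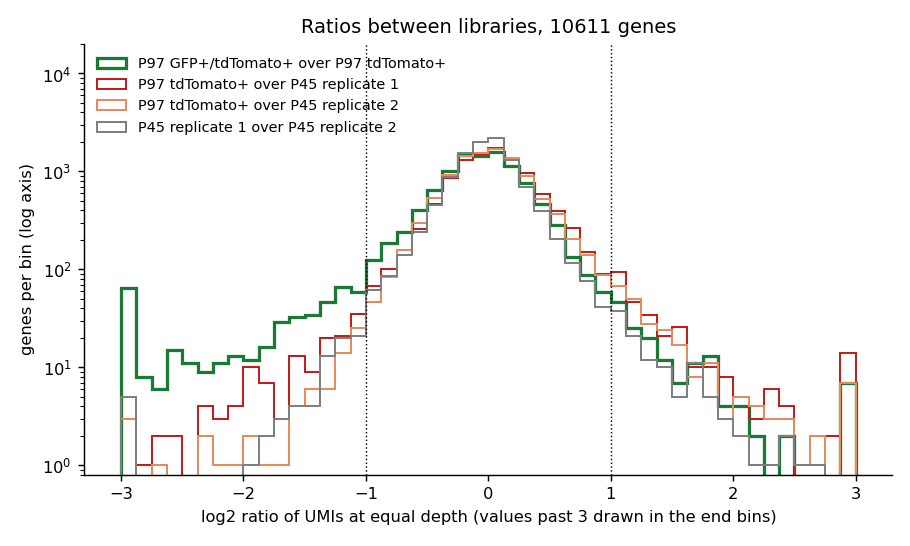
Number of genes (log axis) by log2 ratio of UMIs at equal depth, for the P97 GFP+/tdTomato+ over P97 tdTomato+ libraries and for 3 pairs of tdTomato+ libraries; dotted lines mark 2-fold. The GFP+ curve carries a long lower tail, with 460 genes past 2-fold lower and 154 past 2-fold higher.

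Genes of 4 neuronal groups were then read out: 142 channel genes, 169 receptor genes, 61 neuropeptide and peptide-processing genes, and 229 adhesion and guidance genes. Of these 601 genes, 349 passed the floor. By the stricter rule 5 were higher and 44 lower in GFP+ cells, and the median log2 ratio of the 349 was -0.10, against -0.06 over all genes. Channel genes gave 0 higher and 7 lower of 83, with a median of 0.05. Receptor genes gave 1 higher and 10 lower of 69 (median 0.00), peptide genes 0 higher and 6 lower of 28 (median -0.19), and adhesion and guidance genes 4 higher and 21 lower of 169 (median -0.17). The share lower was above the 2.95% of all genes in each group, from 7 of 83 to 6 of 28. These lists were chosen with results known, and no share was tested.

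**Figure D2:**
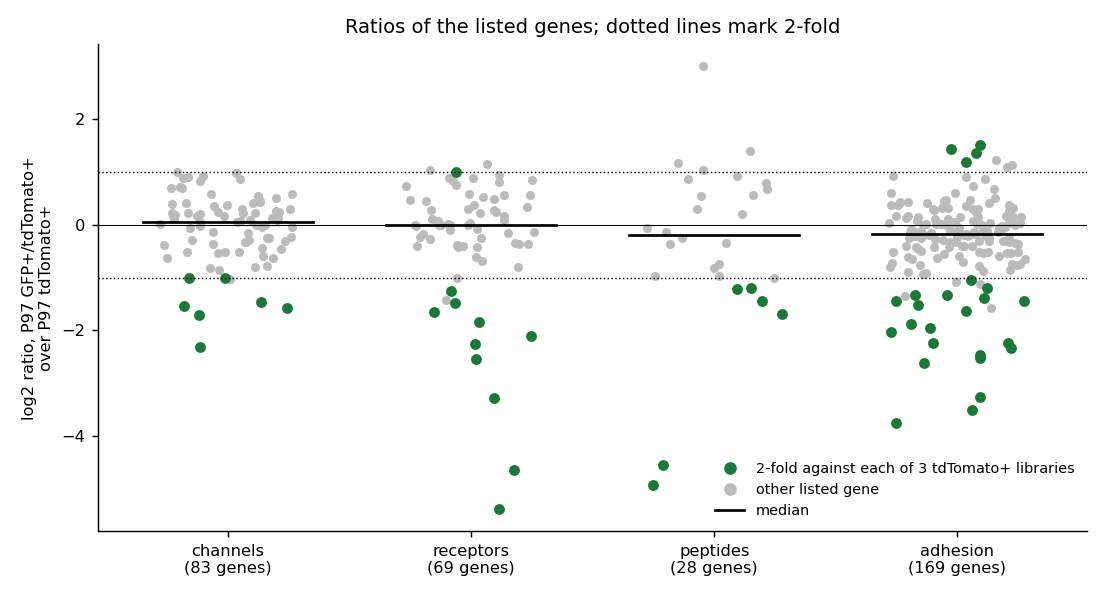
Log2 ratio of UMIs, P97 GFP+/tdTomato+ over P97 tdTomato+, for each listed gene that passed the floor (83 channel, 69 receptor, 28 peptide and 169 adhesion genes), with the median of each group as a line. Coloured genes lay 2-fold from each of the 3 tdTomato+ libraries; most of them, 44 of 49, are on the lower side.

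The genes that the study used to tell SST subtypes apart separated the sorts in opposite directions. Hpse, which encodes the heparan sulfate-cleaving enzyme heparanase, had 437 UMIs in GFP+ cells, against 126 in P97 tdTomato+ cells and 100 and 117 in P45 replicates 1 and 2 (ratio 3.47, interval 2.84 to 4.26). Calb1, the calbindin gene, had 477 UMIs in GFP+ cells against 1971, 2437 and 2210 in the tdTomato+ libraries (ratio 0.24, interval 0.22 to 0.27). Calb2, the calretinin gene, had 16 UMIs against 98, 293 and 214 (ratio 0.16, interval 0.09 to 0.28). For all 3 genes the GFP+ library stood outside the range of the tdTomato+ libraries, and Calb2 varied most among those. In the GENCODE annotation of GRCm38, Hpse lies at chr5:100679484-100719716 on the minus strand and Calb1 at chr4:15881264-15908064 on the plus strand. Crh, which encodes corticotropin-releasing hormone, had 65 UMIs in GFP+ cells against 128, 108 and 170 (ratio 0.51). Pld5 had 35 against 69, 100 and 102 (ratio 0.51), and Timp3, an inhibitor of metalloproteinases, 136 against 186, 352 and 331 (ratio 0.73). Crh, Pld5 and Timp3 were lower than in every tdTomato+ library, but none was 2-fold lower than the P97 tdTomato+ library.

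Counted by cells, Hpse was found in a larger and Calb1 in a smaller share of the GFP+ sort. The thinning of each cell to 3000 UMIs, made so that shares can be compared across depths, left out 2 GFP+ cells and 40 to 87 cells of each tdTomato+ library. The binomial intervals of shares, here and below, treat cells of 1 library as independent draws. They cover neither the spread between mice nor that between libraries, and give no test between the sorts. An Hpse UMI was then found in 47 of 184 GFP+ cells (25.5%, exact binomial interval 19.4 to 32.5%), against 44 of 513 P97 tdTomato+ cells (8.58%), 36 of 580 P45 replicate 1 cells and 43 of 582 P45 replicate 2 cells. In 103 Slc17a7 barcodes, whose median before thinning was 7734 UMIs, it was found in 0, which allows up to 2.91% of barcodes with a UMI at that depth. Without thinning the Hpse shares were 62.9% of GFP+ cells, 14.3% of P97 tdTomato+ cells and 1.87% of Slc17a7 barcodes, at unequal depths. Only 3 of the 107 unthinned Slc17a7 barcodes came from the GFP+ sort, so they say little of the background there. In P97 tdTomato+ 1 of 15 such barcodes held an Hpse UMI. Calb1 was found in 17.9% of thinned GFP+ cells against 62.0% of P97 tdTomato+ cells (unthinned 32.3% against 71.2%), and in 19.4% of the Slc17a7 barcodes, a class that can express Calb1. By GFP transcript, Hpse was found in 37 of 129 GFP+ cells with one and 10 of 55 without, and in 28 of 292 P97 tdTomato+ cells with one and 16 of 221 without. In P45 replicate 1 it was found in 27 of 316 cells with one and 9 of 264 without, and in P45 replicate 2 in 30 of 346 with one and 13 of 236 without. The share was thus higher in cells with a GFP transcript in all 4 libraries, with binomial intervals that overlap within each library, and the difference was not tested.

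**Figure D3:**
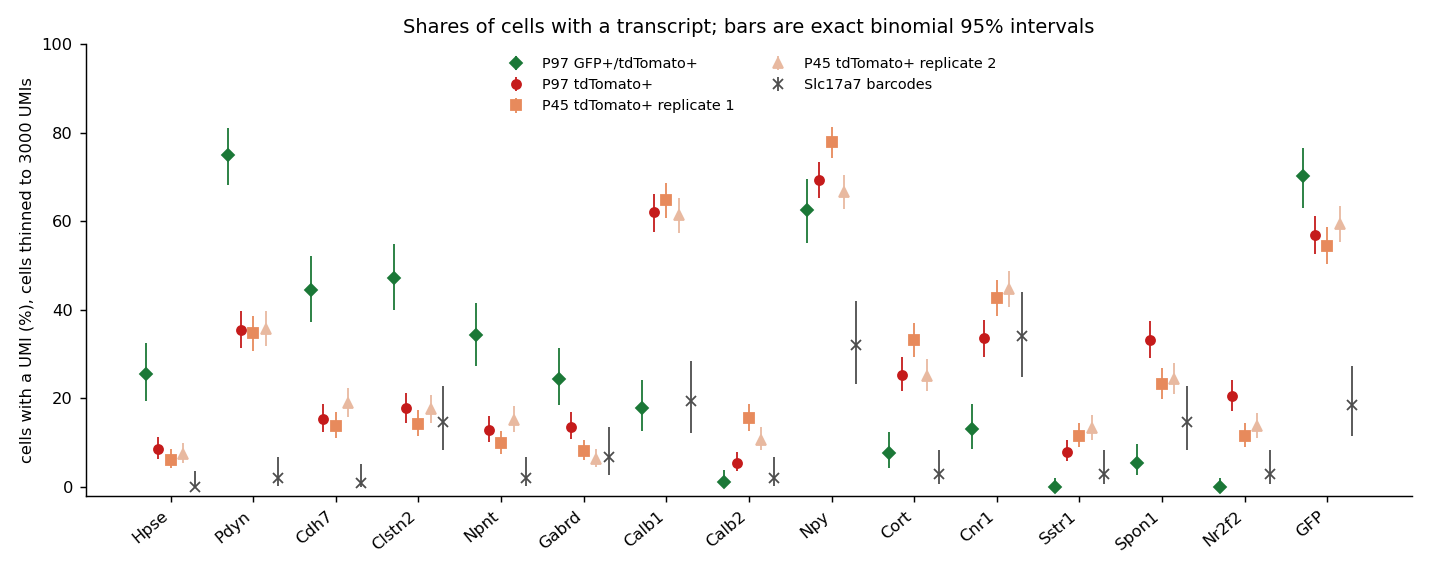
Percent of cells with at least 1 UMI of each gene after thinning every cell to 3000 UMIs, in the P97 GFP+/tdTomato+, P97 tdTomato+ and P45 tdTomato+ libraries and in 103 left-out barcodes with Slc17a7; bars are exact binomial 95% intervals. Hpse, Pdyn, Cdh7, Clstn2 and Npnt sit above all tdTomato+ libraries in GFP+ cells, and Calb1, Cort, Cnr1 and Spon1 below them.

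Among channel genes the lower side was made up of a few potassium, calcium, sodium and cation channel genes, and most of the group did not differ 2-fold. Kcnmb4, which encodes a brain subunit of the BK calcium-activated potassium channel, had 96 UMIs in GFP+ cells against 278 in P97 tdTomato+, 304 in P45 replicate 1 and 356 in P45 replicate 2 (ratio 0.35, interval 0.27 to 0.44). Kcnc4, a Kv3 channel gene, had 65 against 178, 217 and 245 (ratio 0.37, interval 0.27 to 0.49), and Kcnb2, a Kv2 channel gene, 52 against 154, 230 and 191 (ratio 0.34, interval 0.24 to 0.47). For these 3 genes the tdTomato+ libraries lay close to each other and the GFP+ library lay apart from all of them. Trpc5, a receptor-operated cation channel gene, had 2 UMIs against 10, 35 and 50, and Cacng4, of the family of calcium channel and AMPA receptor auxiliary subunits, 7 against 23, 54 and 22. Scn9a, which encodes the sodium channel Nav1.7, had 3 against 6, 37 and 17, and Cacna1h, a T-type calcium channel gene, 7 against 14, 28 and 25. The intervals of the Scn9a and Cacna1h ratios, 0.08 to 2.34 and 0.17 to 1.32, include 1, so a difference from P97 tdTomato+ was not detectable for them at this depth. Of 32 genes for Kv channels and their auxiliary subunits 2 were lower, and of 9 sodium channel genes 1. Over all genes compared 2.95% were lower by that rule. Against P97 tdTomato+ alone, Trpc4 was 2-fold higher and Cacnb2 lower, and neither was so under most of the other settings tried. Just short of 2-fold on the higher side, and named after their values were seen, were Hcn2, a hyperpolarization-activated channel gene, with 256 UMIs in GFP+ cells against 134, 114 and 125 (ratio 1.91, interval 1.54 to 2.37), Kcns3, a modifier of Kv2 channels, with 212 against 115, 138 and 132, and Kcna1, the Kv1.1 gene, with 866 against 472, 265 and 324 (ratio 1.83, interval 1.64 to 2.06). Each of them stood above every tdTomato+ library.

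Of the receptor genes, 1 was higher in GFP+ cells, at the 2-fold limit, and 10 were lower. Gabrd, which encodes the delta subunit of GABA-A receptors found outside synapses, had 365 UMIs in GFP+ cells against 182 in P97 tdTomato+ cells, 79 in P45 replicate 1 and 115 in P45 replicate 2. Its ratio of 2.01 (interval 1.67 to 2.41) stood at the limit, at 1.96 without thinning and 1.85 with another random draw. A Gabrd UMI was found in 24.5% of thinned GFP+ cells (interval 18.4 to 31.3%) against 13.6% of P97 tdTomato+ cells (10.8 to 16.9%) and 6.80% of the Slc17a7 barcodes (unthinned 71.0% against 30.6%). Gabrb1, encoding the beta 1 subunit, lay the other way, with 60 UMIs in GFP+ cells against 286, 346 and 286 in the tdTomato+ libraries (ratio 0.21, interval 0.16 to 0.28). GABA-A and glycine receptor genes thus lay on both sides, with 1 higher and 3 lower of 16, against 0.763% and 2.95% of all genes.

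Some receptor genes were at or near the limit of detection in GFP+ cells while being present in every tdTomato+ library. Adra1a, the alpha 1A adrenergic receptor gene, had 1 UMI in GFP+ cells against 42, 42 and 33. Chrna2, the nicotinic alpha 2 subunit gene, had 0 against 29, 30 and 37, which is at least 9.67-fold lower than P97 tdTomato+ with the 0 taken as 3 UMIs. Grik4, a kainate receptor subunit gene, had 1 against 25, 27 and 23. The 3 tdTomato+ libraries were close to each other for each of these genes. Tacr1, the receptor gene for substance P, had 9 UMIs in GFP+ cells against 39, 85 and 36 (ratio 0.23, interval 0.10 to 0.48). Sstr1, a somatostatin receptor gene, had 16 against 93, 129 and 163 (ratio 0.17, interval 0.09 to 0.29), and a Sstr1 UMI was found in 0 of 184 thinned GFP+ cells, which allows up to 1.63% of cells with a UMI at that depth, against 41 of 513 P97 tdTomato+ cells and 3 of 103 Slc17a7 barcodes (unthinned 6.99% of GFP+ and 18.6% of P97 tdTomato+ cells). Cnr1, which encodes the CB1 cannabinoid receptor and was named after its values were seen, had 142 UMIs in GFP+ cells against 509, 780 and 779 (ratio 0.28, interval 0.23 to 0.34). The other lower genes were Rxfp3, a relaxin-family peptide receptor gene (22 UMIs in GFP+ against 69 in P97 tdTomato+ cells), Gabrg1 (5 against 14) and the glycine receptor gene Glra2 (8 against 19), and the intervals of the last 2 reach 1.05 and 1.01. Against P97 tdTomato+ alone, Grm4, a presynaptic metabotropic glutamate receptor gene, was also 2-fold higher, with 177 UMIs against 80, and Drd1, a dopamine receptor gene, with 90 against 44, while P45 libraries reached 109 UMIs of Grm4 and 60 of Drd1.

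**Figure D4:**
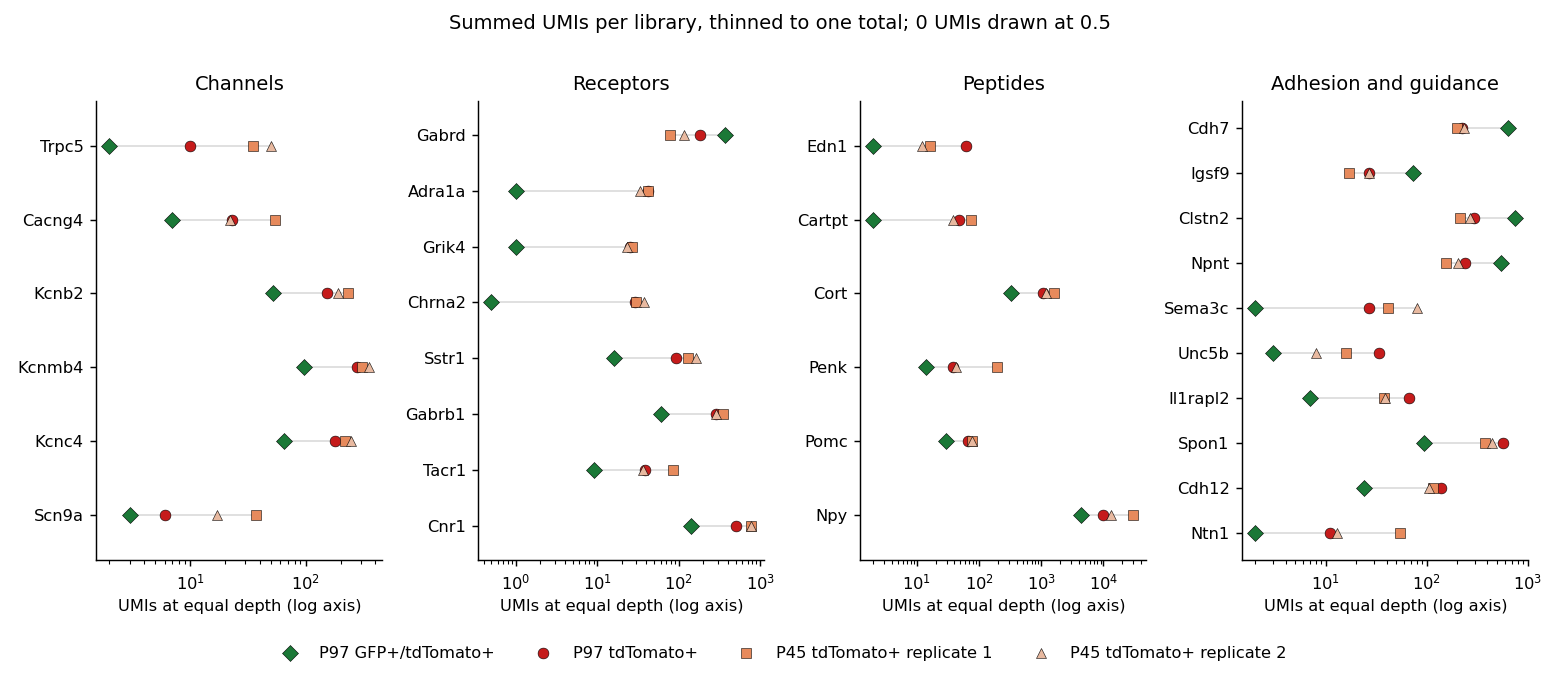
Summed UMIs per library at equal depth (log axis, 0 drawn at 0.5) for the genes named in each group, with 1 point per library: P97 GFP+/tdTomato+, P97 tdTomato+ and the 2 P45 tdTomato+ replicates. For each gene drawn the GFP+ point lies outside the 3 tdTomato+ points, and for Chrna2 it is at 0.

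Of 16 neuropeptide precursor genes past the floor, 6 were lower in GFP+ cells and 0 higher, against 2.95% and 0.763% of all genes. The median log2 ratio of the 16 was -0.59, and 2 of the lower ones, Npy and Cort, had large sums. Npy, which encodes neuropeptide Y, had 4366 UMIs in GFP+ cells against 9993 in P97 tdTomato+, 30172 in P45 replicate 1 and 13400 in P45 replicate 2 (ratio 0.44, interval 0.42 to 0.45). Its share of thinned cells was less apart, at 62.5% of GFP+ against 69.4% of P97 tdTomato+ cells, with 32.0% of the Slc17a7 barcodes also holding a UMI (unthinned 87.1% against 83.7%). The Npy sums of the tdTomato+ libraries were themselves further apart than those of the P97 sorts. Cort, encoding cortistatin, a relative of somatostatin, had 327 UMIs in GFP+ cells against 1054, 1619 and 1172 (ratio 0.31, interval 0.27 to 0.35). A Cort UMI was found in 7.61% of thinned GFP+ cells against 25.3% of P97 tdTomato+ cells and 2.91% of Slc17a7 barcodes (unthinned 25.8% against 37.1%). Cartpt, the gene of the CART peptide precursor, had 2 UMIs against 47, 75 and 38 (ratio 0.04, interval 0.01 to 0.16), and Edn1, the endothelin 1 precursor gene, 2 against 61, 16 and 12. Penk, the enkephalin precursor gene, had 14 against 38, 197 and 43, and Pomc, the proopiomelanocortin gene, 29 against 67, 78 and 76.

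On the higher side no peptide gene met the stricter rule. Pdyn, the prodynorphin gene, and Cck, the cholecystokinin precursor gene, came close. Pdyn had 2723 UMIs in GFP+ cells against 1328 in P97 tdTomato+ and 1154 and 1462 in P45 replicates 1 and 2 (ratios 2.05, 2.36 and 1.86). A Pdyn UMI was found in 138 of 184 thinned GFP+ cells (interval 68.1 to 81.1%) against 35.5% of P97 tdTomato+ cells (31.3 to 39.8%) and 1.94% of Slc17a7 barcodes (unthinned 90.9% against 46.3%). Pdyn was named after its values were seen. Cck had 266 UMIs in GFP+ cells against 33, 108 and 140 (ratios 8.06, 2.46 and 1.90). Tac1, the tachykinin precursor gene, was also 2-fold above P97 tdTomato+. However, 67.7% of the Cck UMIs and 95.6% of the Tac1 UMIs of the GFP+ sort came from 1 cell each. Without the highest cell of each library the Tac1 ratio was 0.25. Pnoc, the nociceptin precursor gene, had 110 UMIs in GFP+ cells against 49 in P97 tdTomato+ and 151 and 117 in the P45 libraries, so its difference did not hold outside the P97 pair. The 12 granin, peptide-processing and peptide-binding genes compared had a median log2 ratio of 0.07 and 0 met the stricter rule.

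Adhesion and guidance genes gave the clearest higher genes of the 4 groups. Cdh7, a type II cadherin gene, had 646 UMIs in GFP+ cells against 226 in P97 tdTomato+ cells and 200 and 234 in P45 replicates 1 and 2 (ratio 2.86, interval 2.45 to 3.34). Clstn2, which encodes the synaptic protein calsyntenin 2, had 756 against 294, 213 and 270 (ratio 2.57, interval 2.24 to 2.95). Npnt, encoding nephronectin, a matrix ligand of integrins, had 550 against 242, 154 and 206 (ratio 2.27, interval 1.95 to 2.65), and 1.97 without the highest cell of each library. Igsf9, an immunoglobulin superfamily gene, had 73 against 27, 17 and 27 (ratio 2.70, interval 1.72 to 4.37). In thinned cells a Cdh7 UMI was found in 44.6% of GFP+ against 15.4% of P97 tdTomato+ cells and 0.971% of Slc17a7 barcodes, and a Clstn2 UMI in 47.3% against 17.7% and 14.6%. Without thinning the shares were 88.7% against 34.0% for Cdh7 and 82.3% against 31.1% for Clstn2. The thinned Clstn2 share of P97 tdTomato+ cells was therefore near that of the Slc17a7 barcodes, and the GFP+ share was above both. Unthinned, 37.4% of the Slc17a7 barcodes held a Clstn2 UMI. Whether these barcodes express Clstn2 themselves was not tested, so their share cannot be read as background. Cdh9, another type II cadherin gene, was 2-fold above P97 tdTomato+ alone, with 456 UMIs against 195 in P97 tdTomato+ and 231 and 292 in the P45 libraries. Cntn5, a contactin gene, was 2-fold above P97 tdTomato+ and P45 replicate 1 (118 UMIs against 55, 51 and 66).

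On the lower side Spon1, which encodes the secreted matrix protein F-spondin, had 94 UMIs in GFP+ cells against 578 in P97 tdTomato+ and 380 and 443 in P45 replicates 1 and 2 (ratio 0.16, interval 0.13 to 0.20), and 22.3% of those 94 came from 1 cell. Cdh12, a type II cadherin gene, had 24 against 138, 115 and 105 (ratio 0.17, interval 0.11 to 0.27). Genes listed as cadherins, Clstn2 among them, therefore fell on both sides. Of these 30 genes 2 were higher, Cdh7 and Clstn2, and 3 lower, against 0.763% and 2.95% of all genes. Il1rapl2, a synaptic adhesion gene of the interleukin 1 receptor family, had 7 against 67, 38 and 39. Sema3c, a secreted semaphorin gene, had 2 against 27, 41 and 80, Ntn1, the netrin 1 gene, 2 against 11, 55 and 13, and Unc5b, a netrin receptor gene, 3 against 34, 16 and 8. Of 50 guidance genes 0 were higher and 8 lower, where 2.95% of all genes were lower. Their median log2 ratio was -0.41 against -0.06 over all genes. Unc5b rested on few cells, since its highest cell gave 30.6% of its UMIs in P97 tdTomato+ and more in both P45 libraries. Further lower genes with larger sums were Ptprt, a receptor phosphatase gene (311 against 843 UMIs in P97 tdTomato+ cells), Cadm1 (152 against 471), Alcam (78 against 366) and Cntnap4 (26 against 131). Lrrtm4 met the stricter rule at 40 against 82 UMIs, but its ratio of 0.49 was above 0.5 under most of the other settings tried.

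The starts of 4 of these genes are printed with 250 bases before and 50 after the annotated start (RefSeq, GRCm38.p6), for reference beside the values: Hpse and Clstn2, higher in GFP+ cells, Cartpt, lower in them, and Sst, which both sorts share. They were chosen after the values were seen. The windows are chr5:100719667-100719966, chr9:98033118-98033417, chr13:99900634-99900933 and chr16:23890795-23891094, all on the minus strand and read 5′ to 3′ in the direction of transcription. Capitals mark the 8 letters of the cAMP response element, TGACGTCA, which reads the same on both strands.
Hpse: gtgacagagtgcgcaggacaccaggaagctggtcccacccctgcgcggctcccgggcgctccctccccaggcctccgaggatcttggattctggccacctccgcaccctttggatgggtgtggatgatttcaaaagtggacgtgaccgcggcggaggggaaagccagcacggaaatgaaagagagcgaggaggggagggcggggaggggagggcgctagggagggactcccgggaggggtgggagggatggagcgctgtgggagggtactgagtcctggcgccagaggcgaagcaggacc
Clstn2: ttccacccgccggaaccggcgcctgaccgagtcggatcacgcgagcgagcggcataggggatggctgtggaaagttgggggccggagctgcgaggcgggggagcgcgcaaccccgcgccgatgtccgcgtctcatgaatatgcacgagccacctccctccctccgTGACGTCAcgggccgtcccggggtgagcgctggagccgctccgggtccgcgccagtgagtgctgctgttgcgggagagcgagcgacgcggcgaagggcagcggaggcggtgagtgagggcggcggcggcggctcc
Cartpt: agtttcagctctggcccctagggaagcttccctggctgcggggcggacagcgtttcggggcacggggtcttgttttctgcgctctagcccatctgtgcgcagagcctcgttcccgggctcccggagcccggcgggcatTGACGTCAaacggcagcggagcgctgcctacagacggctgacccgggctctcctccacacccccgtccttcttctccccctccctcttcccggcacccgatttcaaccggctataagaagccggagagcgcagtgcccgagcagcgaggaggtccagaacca
Sst: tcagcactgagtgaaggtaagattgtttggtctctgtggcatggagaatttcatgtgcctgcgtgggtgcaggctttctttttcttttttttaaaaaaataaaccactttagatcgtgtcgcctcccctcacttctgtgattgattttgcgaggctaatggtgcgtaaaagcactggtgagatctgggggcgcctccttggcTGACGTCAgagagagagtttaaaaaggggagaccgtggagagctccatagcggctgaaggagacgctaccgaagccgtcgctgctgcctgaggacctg
The match starts 48 bases before the start of Sst, 85 before that of Clstn2 and 112 before that of Cartpt, and the Hpse window holds none. The same 8 letters were in 1.79% of 32851 promoter windows, in those of 4.03% of the genes compared that had one, in 2 of 50 genes of the higher side and in 5 of 212 of the lower side. The letters thus stood before genes that were higher, lower and alike in GFP+ cells.

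Outside the 4 groups, the rule for named genes took the 5 largest ratios on each side. On the higher side these were 8030443G20Rik, Rnasek, Pcdhac2, Kctd17 and Pgk1, and all had few UMIs in every tdTomato+ library. Pgk1, the gene of the glycolytic enzyme phosphoglycerate kinase 1, had 274 UMIs in GFP+ cells against 28, 20 and 23 (ratio 9.79), and 8030443G20Rik 122 against 4, 2 and 0. Kctd17 had 60 against 6, 4 and 3, Rnasek 55 against 3, 2 and 4, and Pcdhac2, of the alpha protocadherin cluster, 51 against 5, 5 and 8. Pcdhac2 shares its 3′ exons with the other genes of that cluster, so the split of reads among them is uncertain. On the lower side were Olig1, Opalin, Myh8, Lypd1 and Cd9. Lypd1 had 0 UMIs against 117, 147 and 131, at least 39-fold lower than P97 tdTomato+. Myh8, a skeletal myosin heavy chain gene, had 1 against 44, 73 and 57. Olig1, a transcription factor gene of oligodendrocytes, had 1 against 61, 42 and 60, Opalin, a myelin gene, 2 against 110, 40 and 113, and Cd9, a tetraspanin gene, 2 against 76, 14 and 31.

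Olig1, Opalin and Cd9 moved with markers of oligodendrocytes, which were held by a few cells. The 5 oligodendrocyte markers, Mbp and Mog among them, summed to 169 UMIs in the GFP+ sort, against 3115 in P97 tdTomato+ and 3176 and 3144 in the P45 libraries, and all 5 were lower. Of these UMIs 69.2% were in 1 GFP+ cell, against 96.1% in 5 P97 tdTomato+ cells and 95.3% and 96.1% in 4 cells of each P45 library. With cells of 10 or more such UMIs left out, a setting added after the data were seen, Olig1, Opalin and Cd9 had no more than 3 UMIs in either P97 library. The genes 2-fold lower than each tdTomato+ library then numbered 269, and the higher ones 81, of which 71 were among the 81 genes of the main comparison. In that setting 7 channel, 10 receptor, 6 peptide and 19 adhesion genes were lower. Excitatory neuron markers summed to 440 UMIs in the GFP+ sort, against 243 in P97 tdTomato+ and 319 and 359 in the P45 libraries, with Slc17a6 at 0 in all. In the GFP+ sort 62.0% of them were in 4 cells. Slc17a7 had 116 UMIs in GFP+ cells against 47, 32 and 23, and 44.0% of the 116 came from 1 cell. Cck moved with them, since its ratio of 8.06 was 1.06 with cells of 3 or more such UMIs left out. Astrocyte, microglia, endothelial and other interneuron markers were at 34 summed UMIs or fewer in every library.

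Several genes that mark other SST subtypes were lower in the GFP+ sort. Nr2f2, a transcription factor gene, had 6 UMIs in GFP+ cells against 265 in P97 tdTomato+ and 165 and 195 in P45 replicates 1 and 2, and a UMI was found in 0 of 184 thinned GFP+ cells against 105 of 513 P97 tdTomato+ cells (unthinned 1.08% against 34.4%). Chodl and Nos1, which mark long-range SST cells, had 0 UMIs against 50, 196 and 40 and 23 UMIs against 182, 1072 and 303. Nos1 was lower in UMIs more than in cells, since a Nos1 UMI was found in 3.80% of thinned GFP+ cells against 6.43% of P97 tdTomato+ cells and 4.85% of Slc17a7 barcodes (unthinned 11.8% against 15.6%). Myh13 and Myh4, skeletal myosin heavy chain genes, had 0 against 60, 80 and 86 and 1 against 70, 68 and 83. Th was at 0 in both P97 libraries and at 38 and 25 UMIs in the P45 libraries, so it gave no comparison of the sorts. Pvalb, the parvalbumin gene, was higher, with 1440 UMIs in GFP+ cells against 944 in P97 tdTomato+ (ratio 1.53, interval 1.40 to 1.66) and 436 and 518 in the P45 libraries. With tdTomato+ cells that held a GFP UMI left out, the Pvalb ratio was 0.77, so its direction did not hold under that setting. The setting took out 426 of 553 P97 tdTomato+ cells, and why the ratio turned was not tested. Of the 17 subtype markers, 1 was higher by the stricter rule (Hpse) and 8 lower, against 0.763% and 2.95% of all genes. Lgals1, Fibcd1 and Nppc, also on that list, lay nearer the P97 tdTomato+ level. Lgals1 had 657 UMIs in GFP+ cells against 712 in P97 tdTomato+ and 1377 and 1176 in P45 replicates 1 and 2. Fibcd1 had 131 against 145, 255 and 212, and Nppc 229 against 293, 354 and 237. Mrap2 had 84 against 193, 176 and 111 (ratio 0.44), and Tac2 17 against 30, 55 and 50 (ratio 0.57). All of these were below every tdTomato+ library, but none was 2-fold lower than each. The lower side by the stricter rule thus did not take in every subtype marker on that list. How much of the lower side rests on fewer cells of other SST subtypes was not tested.

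Hpse split the GFP+ sort into 117 cells with and 69 without a UMI, against 79 and 474 in P97 tdTomato+. Within cells with an Hpse UMI, of 6262 genes compared at 563528 UMIs per library, 16 were 2-fold higher in GFP+ cells than in each tdTomato+ library (0.256%) and 31 lower (0.495%). These shares cannot be set against those of the whole sorts, since fewer UMIs left fewer and more abundant genes past the floor. None of 54 channel genes was among them, and of 112 adhesion genes 0 were higher and 3 lower. Cdh7 had 134 UMIs in GFP+ cells against 104, 94 and 129 (ratio 1.29, interval 0.99 to 1.68), Clstn2 162 against 132, 112 and 115 (ratio 1.23), Pdyn 594 against 641, 516 and 768 (ratio 0.93) and Gabrd 66 against 57, 18 and 49 (ratio 1.16). None of these 4 was 2-fold higher there, whereas Calb1 remained lower, with 27 UMIs against 86, 163 and 110 (ratio 0.31, interval 0.20 to 0.49), as did Alcam, with 1 against 24, 24 and 28. Within cells without an Hpse UMI, of 8575 genes compared at 1126600 UMIs per library, 57 were higher (0.665%) and 175 lower (2.04%). There Cdh7 had 180 UMIs in GFP+ cells against 49, 40 and 56 (ratio 3.67, interval 2.67 to 5.15), and Pvalb 763 against 343, 149 and 191 (ratio 2.22). A cell without a UMI may still express Hpse, and the GFP+ cells without one had a median of 15021 UMIs against 7332 in P97 tdTomato+.

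Among cells without an Hpse UMI, channel genes gave 7 higher and 3 lower of 71, where 0.665% and 2.04% of 8575 genes were so. Kcna1, Kcns3, Hcn2 and Scn4b were among the higher ones, and were named after their values were seen. Kcna1 had 346 UMIs in GFP+ cells without Hpse against 148 in P97 tdTomato+ and 81 and 99 in the P45 libraries (ratio 2.34, interval 1.92 to 2.85). Hcn2 had 98 against 44, 31 and 46 (ratio 2.23, interval 1.55 to 3.26), and Kcns3 94 against 37, 40 and 47 (ratio 2.54, interval 1.72 to 3.82). Scn4b, a sodium channel beta subunit gene, had 45 against 17, 6 and 6. The 3 lower channel genes, Kcnb2, Kcnc4 and Kcnmb4, were those with the largest sums among the lower ones of the whole sorts. Kcnmb4 had 47 UMIs in GFP+ cells without Hpse against 114, 124 and 134 (ratio 0.41, interval 0.29 to 0.58). Cnr1 was lower in both sets, with 24 UMIs against 52, 48 and 59 in cells with Hpse and 52 against 198, 288 and 294 in cells without. The difference between the sets was not tested.

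**Figure D5:**
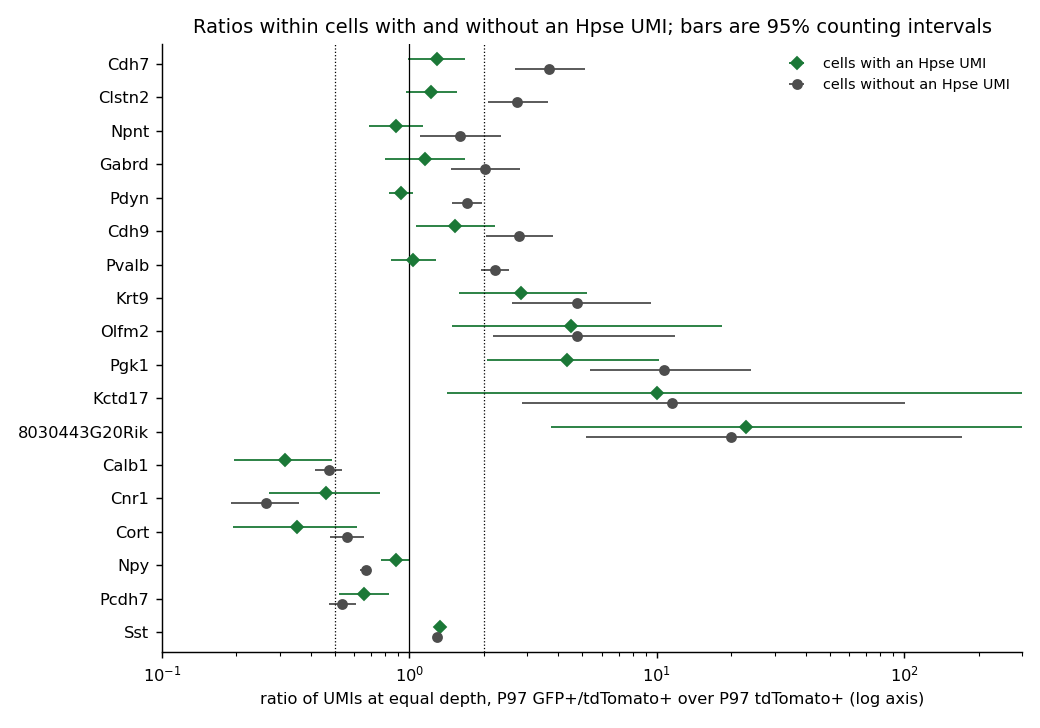
Ratio of UMIs at equal depth, P97 GFP+/tdTomato+ over P97 tdTomato+ (log axis), in cells with and without an Hpse UMI; bars are 95% counting intervals and dotted lines mark 2-fold. Cdh7, Clstn2, Npnt, Gabrd and Pdyn lie between 0.88 and 1.29 in cells with Hpse, while Pgk1, Kctd17 and 8030443G20Rik lie above 4 in both sets of cells.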

How the data were processed

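Raw UMI counts per gene and cell barcode were deposited by the authors for each of the 4 libraries, made with Cell Ranger 2.0.0 on GRCm38 per the submitters' processing notes (the annotation release was not stated). Cells came from 10x Chromium 3′ libraries of sorted cells, so each count is a UMI near a transcript's 3′ end. Barcodes were kept at 2000 or more UMIs, under 25% mitochondrial UMIs and 3 or more Sst UMIs. Of the GFP+/tdTomato+ barcodes left out, 39 had 25% or more mitochondrial UMIs and 21 had under 3 Sst UMIs, some of them both. Kept cells held 3189412 UMIs in the GFP+/tdTomato+ library, 4866165 in P97 tdTomato+, and 3983479 and 4314325 in P45 tdTomato+ replicates 1 and 2. Sums were thinned without replacement to 3189412 UMIs (seed 1), and genes with 60 or more UMIs over the 4 sums were compared.

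Ratios carry exact conditional 95% intervals, shares exact Clopper-Pearson intervals, and a 0 was taken as 3 UMIs in a ratio. With 1 library a side there was no test, and the equal-depth ratio with its 2-fold threshold stands in for one. Named by rule were up to 6 higher and 6 lower genes per group with the largest ratios among those 2-fold from each tdTomato+ library, 5 higher and 5 lower genes outside the groups, and the study's subtype genes. Genes called against P97 tdTomato+ alone, lower genes beyond those 6, subtype markers with their values and the genes of the Hpse split were named after their values were seen. The gene lists and members were chosen with earlier results of these data known. Of 601 list genes 598 were in the files. Doublets were not called. Cells over 30000 UMIs and cells with excitatory markers were left out as alternatives. Other alternatives were unthinned sums, another seed, each cell thinned to 3000 UMIs, TMM and DESeq2 size factors, other floors and other criteria on cells. TMM factors came from edgeR 4.0.16 and size factors from DESeq2 1.42.0 in R 4.3.3, and neither tool was used for a test. The rest was computed with Python 3.11.15, NumPy 2.4.6, SciPy 1.17.1 and pandas 2.3.3. The ratio and thinning steps were tested on simulated counts. Promoter windows came from the RefSeq table of GRCm38.p6, and gene positions and types from GENCODE M21. Values of some single list genes are not reported here.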

Additional observations from a re-analysis of the deposited data

Results flagged for a closer look

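Barcodes left out for under 3 Sst UMIs were not part of the comparison, and 107 of them over the 4 libraries carried 3 or more UMIs of Slc17a7, the vesicular glutamate transporter gene of excitatory neurons. A tdTomato UMI was found in 98 of these 107 (91.6%, exact binomial interval 84.6 to 96.1%), a signal in barcodes that the comparison does not use. A GFP UMI was found in 1 of 3 of them in the GFP+/tdTomato+ sort, 10 of 15 in P97 tdTomato+, and 6 of 66 and 7 of 23 in P45 tdTomato+ replicates 1 and 2, which makes 22.4% over all 107. They served as the background for shares of cells in the report. The source of these transcripts was not tested.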

How the results depend on the processing

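Of the 4 counts over all genes (154 higher and 460 lower than P97 tdTomato+, 81 and 313 against each tdTomato+ library), all stayed within 1.5 times under unthinned sums, another seed, TMM or DESeq2 factors, other UMI, mitochondrial and Sst criteria, and the removal of the largest cells or of cells with excitatory or oligodendrocyte markers. The genes behind the counts changed more than their number. Another seed kept 116 of the 154 higher and 393 of the 460 lower genes. It also kept 69 of the 81 and 283 of the 313. With each cell thinned to 3000 UMIs, which left 6349 genes, 293 genes were lower than P97 tdTomato+, and 37 were higher and 162 lower than each library. Of those 37 and 162 genes, 18 and 86 were among the 81 and 313 of the main comparison. With no floor the counts were 1530, 1934, 305 and 1166 over 17038 genes, and the higher share of calls against P97 tdTomato+ was 44.2% rather than 25.1%. With a floor of 200 UMIs they were 72, 193, 39 and 143 over 8075 genes. With tdTomato+ cells holding a GFP UMI left out, 177 genes were lower than each library and the Hpse ratio was 11. That setting took out 426 of 553 P97 tdTomato+ cells and left 869860 UMIs per library. It kept 29 of the 81 higher and 104 of the 313 lower genes. Without P45 replicate 1 or 2 the counts against each remaining library were 96 to 104 higher and 340 to 344 lower. No paired analysis was possible because no test was made and each P97 sort is 1 library.

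Directions turned for 7 named genes. Trpc4 was at 0.71 and Rgmb at 1.33 with cells thinned to 3000 UMIs. Tenm3 was at 0.86, Pvalb at 0.77 and Plxnb2 at 1.67 with GFP-UMI cells out of the tdTomato+ sorts, and Slc17a7 at 0.96 with no Sst criterion. Tac1 was at 0.0909 with mitochondrial UMIs under 10%, 0.54, 0.20 and 0.46 with 1, 10 or no Sst UMI asked for, 0.0769 without cells over 30000 UMIs, and 0.25 without its highest cell, an alternative added after the data were seen. Another seed moved 9 of 87 named genes across the 2-fold line. Across the settings, the Calb1 ratio was 0.18 to 0.27, that of Cdh7 2.74 to 3.07, Gabrd 1.35 to 2.28, Hpse 3.09 to 11, Cdh9 1.71 to 6.74 and Pdyn 1.96 to 4.59. With GFP-UMI cells left out, 49 ratios moved past the interval of the reported ratio and 36 stayed within it. With cells thinned to 3000 UMIs, 37 moved and 52 stayed. In each of these settings a further 2 genes, 2-fold apart from P97 tdTomato+ in the main comparison, turned direction.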

Other observations

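Gene types outside the 4 groups were uneven. Pseudogenes made up 0.331% of 10588 genes compared that had a type in GENCODE, 5 of 81 genes higher in GFP+ cells than in each tdTomato+ library, and 1 of 311 lower ones. Rpl23a-ps3 had 473 UMIs in GFP+ cells against 218, 111 and 163 in the tdTomato+ libraries, and Fabp3-ps1 77 against 19, 17 and 33. Such copies share reads with their parent genes, so these counts are uncertain.

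The genes with the largest ratios outside the groups were high in GFP+ cells with and without Hpse. Pgk1 had 39 UMIs in GFP+ cells with Hpse against 9, 1 and 4 in the tdTomato+ libraries, and 96 against 9, 7 and 7 in cells without. 8030443G20Rik had 23 against 1, 0 and 0 with Hpse and 40 against 2, 1 and 0 without. Of the genes higher than each tdTomato+ library in the whole sorts, 10 of the 32 compared again were past 2-fold against P97 tdTomato+ in cells with Hpse and 32 of 39 in cells without. All these genes were picked for high ratios in the same cells, so finding them high again is no independent support. The 2 sets also differ in depth, so their counts cannot be set against each other.

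Of 9 immediate early genes, which neuronal activity induces, 4 were lower: Fos had 58 UMIs in GFP+ cells against 151, 287 and 142, Fosb 7 against 29, 48 and 35, Jun 44 against 91, 219 and 134, and Npas4 6 against 15, 36 and 17, where the interval of the ratio, 0.13 to 1.09, includes 1. Over all genes 2.95% were lower by that rule. On the other side, Arc had 111 UMIs in GFP+ cells against 63, 122 and 46 (ratio 1.76, interval 1.28 to 2.44), Junb 151 against 133, 317 and 200, and Egr1 540 against 429, 652 and 349. Of 5 heat shock genes 0 were past 2-fold, and Hspa8 had 3282 UMIs against 1894, 1565 and 1476. Nefh, the heavy neurofilament gene, chosen after its values were seen, had 586 UMIs against 202, 185 and 185 (ratio 2.90, interval 2.47 to 3.42).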
